A study of Homo sapiens with 6 samples.

Results

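The oxidation of aldehydes to carboxylic acids was followed through 10 genes, AOX1, XDH, ALDH1A1, ALDH1A2, ALDH1A3, ALDH2, ALDH3A1, ALDH3A2, ALDH3B1 and ALDH7A1, which are 10 of the 19973 genes in the deposited expression table. They were taken by their names in that table, and the set was chosen by how their read counts differed between the shNUF2 and shNC libraries, with those differences already known. Their differences between the groups are therefore given as a description, without a p-value. The study measured poly(A) RNA by RNA-seq in OVCAR3, an established human ovarian cancer cell line, to find the genes affected by knockdown of NUF2, a component of the kinetochore that attaches chromosomes to the spindle. The shNC group (labelled WT) received the control hairpin and the shNUF2 group (labelled NUF2 knockdown) the hairpin against NUF2. Both groups are stable lines selected with puromycin, and each has 3 libraries. A single hairpin sequence against NUF2 was used in the shNUF2 libraries, and the labels do not say whether the libraries of a group came from separate cultures, so that the p-values measure only the spread between these samples.

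AOX1, aldehyde oxidase, and XDH, xanthine dehydrogenase, are sister enzymes that carry a molybdenum cofactor, iron-sulfur clusters and FAD. AOX1 oxidises aldehydes and nitrogen-containing drugs, and XDH turns hypoxanthine into xanthine and xanthine into uric acid. Both are active only after the sulfurase MOCOS has added a sulfur atom to the cofactor. The aldehyde dehydrogenases do the same kind of chemistry with NAD or NADP in place of molybdenum: ALDH1A enzymes make retinoic acid from retinal, ALDH2 clears acetaldehyde in mitochondria, the ALDH3 enzymes act on fatty and aromatic aldehydes, and ALDH7A1 acts in lysine breakdown. High ALDH activity, often ascribed to ALDH1A1, is widely used as a mark of stem-like cells in ovarian cancer.

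Between 13057534 and 16995452 reads were counted on genes per library. NUF2 itself fell from 65.2 ± 2.94 to 22.9 ± 2.40 CPM (read counts scaled to the TMM-adjusted library size; SD, n = 3 per group), a log2 fold change of -1.51 (SE 0.08), and an exact two-sided permutation test of this single value gave p = 0.10, the smallest that 3 libraries against 3 allow. Summed FPKM (reads per kilobase of gene length, scaled to the library total) of 9 ovarian carcinoma epithelium markers was 399 to 425 with shNC and 373 to 401 with shNUF2, although WT1 had 0 to 7 reads and CDH1 9 to 33 reads per library. KRT7 at 169 FPKM and MSLN at 153 FPKM made up most of the shNC sum. PAX8, EPCAM and MUC16 were low as well, at 1.39, 1.41 and 1.12 FPKM with shNC. Within that sum the markers moved apart: at an adjusted p under 0.05 in edgeR's test, KRT8, KRT18, PAX8 and EPCAM were higher with shNUF2, and MSLN, MUC16 and KRT7 were lower. Of the other lists, 8 fibroblast markers summed to 9.44 to 10.1 FPKM with shNC and 7.36 to 8.24 with shNUF2, with PDGFRA at 0. The 5 leukocyte markers summed to 0.197 to 0.295 and 0.557 to 0.710, the 4 endothelial markers to 0.226 to 0.439 and 0.462 to 0.692, and the 6 hepatocyte markers to 0 to 0.225 and 0.0875 to 0.385, with ALB, APOA1 and TTR at 0 in every library. Of all these markers KRT8, DCN and CDH5 passed the thresholds used here (a log2 fold change beyond 1 or -1 and an unadjusted p under 0.05), each as higher with shNUF2. Their part in the results below was not tested. In such bulk libraries, fewer cells carrying a transcript and less of it per cell cannot be told apart.

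The sequences that bear on the comparison are the hairpin target and the bases in front of the genes. The shNUF2 hairpin is directed at the following stretch of NUF2, in which capitals mark the 7 bases that pair with the guide's seed (guide bases 2 to 8).
shNUF2 target: cttcttaccattcAGCAATTt
The whole target was found in none of the 10 genes' longest coding transcripts in GENCODE release 29. The seed site was found in the 3′ UTR of ALDH2 only, 1 time, against 12.2% of 19428 coding genes with at least 1 such site. It is printed here in capitals, with the bases in front of it.
ALDH2 site: gcctcctgggttggAGCAATT

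The bases in front of the first start site are shown for XDH and AOX1, the 2 members that were higher with shNUF2, and for ALDH3B1 and ALDH3A2, 2 that were lower. They are RefSeq sequences on GRCh38.p14, 250 bases each, and 104 bases for AOX1, where the rest of the 250 lies inside the annotated gene. XDH is chr2:31414743-31414992 on the minus strand, AOX1 chr2:200585764-200585867 on the plus strand, ALDH3B1 chr11:68008297-68008546 on the plus strand and ALDH3A2 chr17:19647886-19648135 on the plus strand. Capitals mark every match, on either strand, to TGACNNNGC (the core of the antioxidant response element), TGANTCA (the AP-1 element), CCAAT (the CCAAT box) or GGGCGG (the GC box).
XDH: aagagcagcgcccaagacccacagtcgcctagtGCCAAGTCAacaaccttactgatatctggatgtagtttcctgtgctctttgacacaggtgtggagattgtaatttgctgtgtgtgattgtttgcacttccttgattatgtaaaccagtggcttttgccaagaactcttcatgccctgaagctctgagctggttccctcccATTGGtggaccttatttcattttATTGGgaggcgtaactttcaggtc
AOX1: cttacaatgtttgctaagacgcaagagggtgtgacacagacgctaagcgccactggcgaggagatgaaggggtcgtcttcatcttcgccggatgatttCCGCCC
ALDH3B1: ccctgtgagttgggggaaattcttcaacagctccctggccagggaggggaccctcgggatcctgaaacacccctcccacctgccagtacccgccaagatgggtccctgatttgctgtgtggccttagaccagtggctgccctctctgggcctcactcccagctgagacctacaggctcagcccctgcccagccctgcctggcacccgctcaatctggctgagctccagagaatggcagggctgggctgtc
ALDH3A2: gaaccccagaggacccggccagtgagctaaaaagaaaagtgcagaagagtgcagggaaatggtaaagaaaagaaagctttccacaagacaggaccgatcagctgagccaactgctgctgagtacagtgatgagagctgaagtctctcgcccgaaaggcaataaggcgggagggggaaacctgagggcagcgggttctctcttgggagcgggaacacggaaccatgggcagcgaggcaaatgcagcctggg
The XDH stretch holds 1 match to TGACNNNGC and 2 to CCAAT, and the AOX1 stretch ends in 1 match to GGGCGG, read on the minus strand. The whole AOX1 promoter, with the bases inside the annotated gene, holds 2 matches to GGGCGG. No letters matching any of the 4 motifs are in the ALDH3B1 and ALDH3A2 stretches printed here. The promoter at the other listed start of ALDH3B1 holds 2 matches to GGGCGG, that at the other start of ALDH3A2 holds 1 to CCAAT and 4 to GGGCGG, and that of ALDH7A1, which was also lower, holds 1 to CCAAT and 3 to GGGCGG. Over all 35116 RefSeq promoters, each searched in the 250 bases before the start, 10.9% hold TGACNNNGC, 6.57% TGANTCA, 32.0% CCAAT and 42.6% GGGCGG. The table of promoters had entries for 8 of the 10 members, all but ALDH2 and ALDH3A1.

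AOX1 was the member with the largest difference. The gene (ENSG00000138356) lies on chromosome 2 from 200586014 to 200677064, plus strand, on GRCh38. With shNC, 1 read was counted in each of the 3 libraries, and with shNUF2 88, 137 and 137 reads were counted. The groups lie far apart, and within the shNUF2 group replicate 1 was the lowest. Normalised levels were 0.0703, 0.0626 and 0.0581 CPM with shNC and 6.53, 10.5 and 9.11 CPM with shNUF2, or 0.0637 ± 0.00618 against 8.73 ± 2.03 CPM (SD, n = 3 per group). The ratio of the summed reads, 3 against 362 and scaled by library size, was 138, with a 95% exact interval from 46.8 to 671. This interval, like the limits for genes without reads given below, covers counting error only. Per length, AOX1 reached 1.59 ± 0.385 FPKM in the shNUF2 libraries, below XDH, ALDH2 and ALDH7A1 in the same libraries. More genes had at least 1 read in the shNUF2 libraries (15435 to 15536) than in the shNC libraries (14582 to 14691), and the part of this in the AOX1 value was not tested. AOX1 has the related pseudogenes AOX2P and AOX3P, and how the counting treated reads shared with them is not stated.

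**Figure D1:**
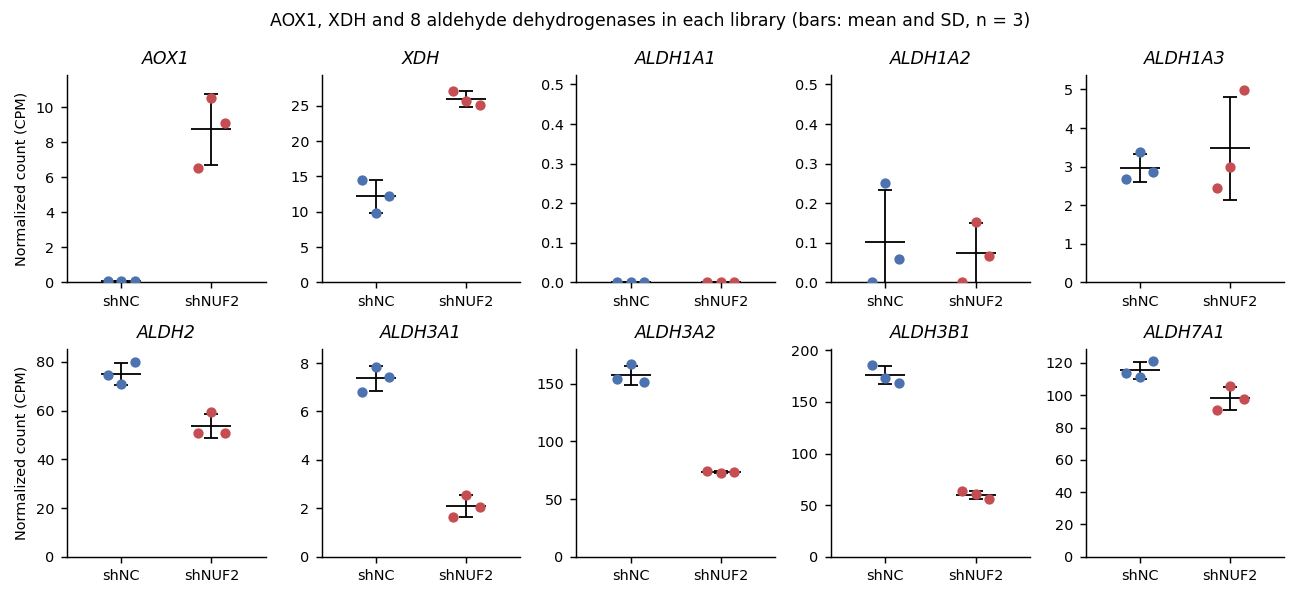
Normalised read count (CPM, linear axes from 0, a scale of its own for each gene) of the 10 members in each library, with shNC in blue, shNUF2 in red and bars for the mean and SD (n = 3 per group). AOX1 moves from 0.0637 to 8.73 CPM, while ALDH3B1, at 176 with shNC, lies at 59.9 with shNUF2.

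The genes beside AOX1 on chromosome 2 were measured in the same libraries. SPATS2L, KCTD18 and SGO2, which protects centromeric cohesion, are the 3 genes listed before it, and BZW1, the splicing kinase CLK1 and PPIL3 the 3 after it. None of these 6 passed the threshold of a log2 fold change beyond 1 or -1 in edgeR's quasi-likelihood test or in DESeq2, while in edgeR all 6 had an adjusted p under 0.05. Over all genes tested in edgeR, 9.41% passed the thresholds as higher and 4.16% as lower. At an adjusted p under 0.05, 33.9% of all genes were higher and 33.8% lower. SGO2 was higher by a log2 fold change of 0.72 (SE 0.08, adjusted p = 1.06e-08), BZW1 by 0.67 (SE 0.04, adjusted p = 1.2e-13) and CLK1 by 0.81 (SE 0.07, adjusted p = 2.85e-11). KCTD18, the lower one, was at -0.43 (SE 0.13, adjusted p = 0.00645). The AOX1 difference was thus on another scale than those of its neighbours, 5 of which were also higher with shNUF2.

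**Figure D2:**
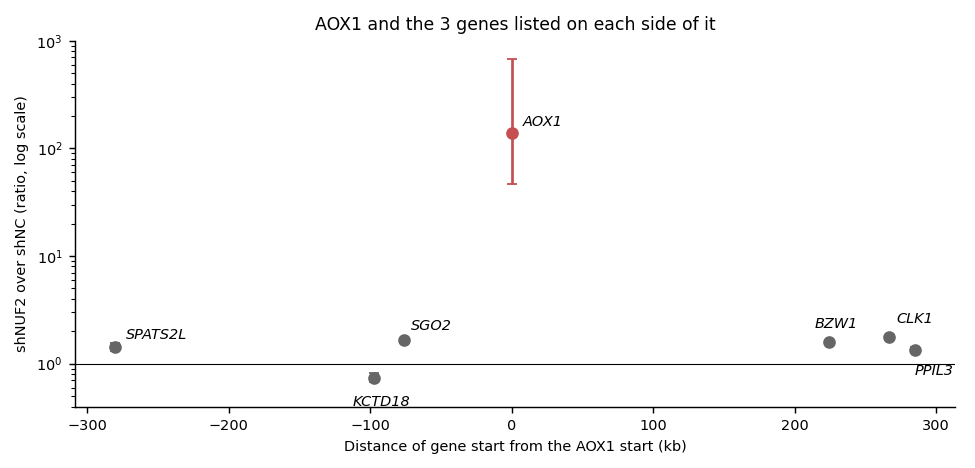
Ratio of shNUF2 to shNC (log scale) for AOX1 and the 3 genes listed on each side, against the distance of their starts from the AOX1 start in kilobases. The bar on AOX1 is the 95% counting interval of its read ratio of 138, and bars on the others are 1 SE of the fitted value. SPATS2L to PPIL3 lie close to 1, with CLK1 highest at 1.76.

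XDH, the other molybdenum enzyme among the members (ENSG00000158125; chromosome 2, 31334321 to 31414742, minus strand), was also higher with shNUF2, from a higher starting level. It was counted at 206, 158 and 210 reads for shNC and at 366, 333 and 377 reads for shNUF2. The groups did not overlap, and shNC replicate 2 was the lowest library. The level went from 12.2 ± 2.30 to 25.9 ± 1.08 CPM, 2.13-fold, with a log2 fold change of 1.09 (SE 0.12). Without shNC replicate 2 the log2 fold change was 0.96, below the threshold of 1, and XDH also did not pass with limma on log2(FPKM + 1) or in TREAT, which asks whether the change itself exceeds the threshold.

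The genes that make, activate or share the molybdenum cofactor were set beside AOX1 and XDH. Of 8 genes in this list 7 could be tested, 2 passed the thresholds as lower, 5 were lower at an adjusted p under 0.05, and the median log2 fold change was -0.53. Over all genes tested, 4.16% passed the thresholds as lower, 33.8% were lower at an adjusted p under 0.05, and the median was -0.01. MOCOS, the sulfurase on which the activity of both AOX1 and XDH depends, was counted at 904, 977 and 1050 reads for shNC and at 208, 177 and 160 reads for shNUF2. This is 4.68-fold lower, a log2 fold change of -2.23 (SE 0.09, adjusted p = 3.2e-17 in edgeR's test). MOCOS was thus lower in the group in which AOX1 and XDH were higher. MTARC1, a mitochondrial molybdenum enzyme that reduces amidoximes, fell by 1.73 on the log2 scale (SE 0.06, adjusted p = 1.12e-18). Its paralog MTARC2 was at -0.45 (SE 0.11, adjusted p = 0.000638), and SUOX, sulfite oxidase, at -0.76 (SE 0.12, adjusted p = 2.3e-06). MOCS1, which starts the synthesis of the cofactor, had 0 reads in every library.

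The ALDH3 enzymes were the members with the largest decreases. ALDH3B1 (ENSG00000006534; chromosome 11, 68008578 to 68029282, plus strand) oxidises lipid-derived aldehydes at membranes. Its read counts were 2635, 2769 and 2902 for shNC and 861, 785 and 835 for shNUF2. The groups stood well apart, and the level went from 176 ± 8.61 to 59.9 ± 4.20 CPM, 2.93-fold lower, with a log2 fold change of -1.55 (SE 0.06). ALDH3B2, its paralog 327 kb away, had 1 read in 1 library and none in the other 5.

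ALDH3A2 and ALDH3A1 are neighbours on chromosome 17, 52.2 kb apart on opposite strands, and both were lower with shNUF2. ALDH3A2 (ENSG00000072210; 19648136 to 19685760, plus strand) is the fatty aldehyde dehydrogenase that is defective in Sjögren-Larsson syndrome. It was counted at 2185, 2667 and 2601 reads for shNC and at 1003, 946 and 1109 reads for shNUF2. The shNUF2 libraries were close together, at 73.6 ± 0.817 CPM against 157 ± 8.43 CPM with shNC, 2.14-fold lower with a log2 fold change of -1.09 (SE 0.05). This lay close to the threshold, and ALDH3A2 did not pass it with limma on log2(FPKM + 1) or in TREAT. ALDH3A1 (ENSG00000108602; 19737984 to 19748943, minus strand), known as a corneal crystallin and for resistance to oxazaphosphorine drugs, was much less abundant. Its counts were 97, 125 and 128 for shNC and 22, 33 and 31 for shNUF2. Again no shNUF2 library reached the shNC range, and the mean fell from 7.36 ± 0.504 to 2.08 ± 0.454 CPM, 3.54-fold, with a log2 fold change of -1.83 (SE 0.21), or -0.94 with limma on log2(FPKM + 1). Genes on the opposite strand overlap ALDH3A1, ALDH3A2 and ALDH3B1, and the strand setting of the counting is not stated.

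ALDH2 and ALDH7A1 were lower by less. ALDH2 (ENSG00000111275; chromosome 12, 111766887 to 111817532), the gene with the seed site printed above, was counted at 1058, 1134 and 1372 reads for shNC and at 687, 773 and 766 reads for shNUF2. Its level was 75.0 ± 4.43 against 53.8 ± 4.92 CPM, a ratio of 0.717 and a log2 fold change of -0.48 (SE 0.07), with no overlap of the groups. ALDH7A1 (ENSG00000164904; chromosome 5, 126531200 to 126595362), which oxidises the semialdehyde of lysine breakdown, was counted at 1618, 1779 and 2083 reads for shNC and at 1228, 1372 and 1467 reads for shNUF2. The difference between 115 ± 5.07 and 98.1 ± 7.24 CPM, a log2 fold change of -0.24 (SE 0.05), was the smallest among the members whose groups did not overlap. ALDH7A1 has processed pseudogenes, ALDH7A1P1 to ALDH7A1P4, with which it may share reads.

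The retinal-oxidising ALDH1A enzymes were scarce in both groups. ALDH1A1 (ENSG00000165092; chromosome 9, 72900671 to 73080442) had 0 reads in all 6 libraries. A count of 0 allows up to 3 reads, or 0.0622 to 0.0809 FPKM depending on the library, so that a lower level was not detectable at this depth. ALDH1A2 (ENSG00000128918; chromosome 15) was counted at 0, 4 and 1 reads for shNC and at 0, 2 and 1 reads for shNUF2. The ratio of these few reads was 0.685, with an exact interval from 0.106 to 3.52. ALDH1A3 (ENSG00000184254; chromosome 15, 100877714 to 100916626) was the ALDH1A gene with a measurable level. It was counted at 38, 54 and 49 reads for shNC and at 33, 39 and 75 reads for shNUF2. The groups overlapped, the means were 2.97 ± 0.368 and 3.48 ± 1.34 CPM, and the log2 fold change of 0.24 (SE 0.27) turned to -0.13 without shNUF2 replicate 3. Genes on the opposite strand overlap ALDH1A1, ALDH1A2 and ALDH1A3 too, and their part in these low counts was not tested.

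Of the 10 members, 8 passed the filter on low counts, and ALDH1A1 and ALDH1A2 did not. Among the 8, 2 passed the thresholds as higher, where 9.41% of the 12874 genes tested did so, and 3 as lower, where 4.16% did so. At an adjusted p under 0.05, without a fold threshold, 33.9% of all genes tested were higher and 33.8% lower. The groups did not overlap for 2 members that were higher and 5 that were lower, and this was so for 35.2% and 35.4% of all genes tested. As these differences were known when the members were chosen, nothing is read from their counts.

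Levels of different genes were compared per length. With shNC the order by FPKM was ALDH3B1 at 26.9, ALDH3A2 at 10.4, ALDH2 at 7.81 and ALDH7A1 at 6.52, followed by XDH at 2.03 and ALDH3A1 at 1.92, whose library ranges overlapped, and then ALDH1A3 at 0.563. With shNUF2 ALDH3B1 was still first at 8.92, followed by ALDH2 at 5.46 and ALDH7A1 at 5.40 with overlapping ranges, ALDH3A2 at 4.74, XDH at 4.22 and AOX1 at 1.59. ALDH1A3 at 0.644 and ALDH3A1 at 0.529 overlapped, and ALDH1A2 and ALDH1A1 were last. With shNC the last places were those of ALDH1A2 and AOX1, whose ranges overlapped, and of ALDH1A1 at 0. By the deposited length, ALDH3A2 thus went from above to below ALDH2 and ALDH7A1, and AOX1 from below to above ALDH1A3. The order depends on the gene length used, which in the deposited table is 3.61 times the longest coding transcript for ALDH7A1 and 3.90 times for ALDH3A2, but 1.02 times for ALDH2. Per length of that transcript, an alternative chosen after the data were seen, ALDH7A1 at 23.5 stood above ALDH2 at 7.94 with shNC, and with shNUF2 ALDH7A1 at 19.5 overlapped both ALDH3B1 at 21.2 and ALDH3A2 at 18.5. On that scale ALDH3A2 stayed above ALDH2, at 5.55 with shNUF2.

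**Figure D3:**
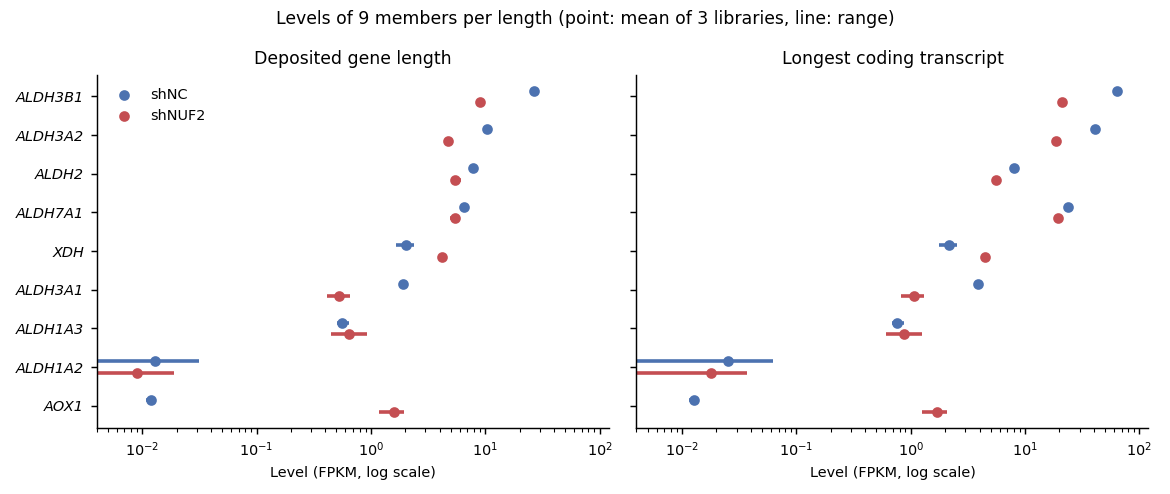
Level of 9 members per length (FPKM, log scale) by the deposited gene length (left) and the longest coding transcript (right), for shNC (blue) and shNUF2 (red), with the mean as a point and the library range as a line, which ends at the left edge where it includes 0 (ALDH1A1, at 0 in every library, is left out). ALDH3B1 has the highest mean in both groups, and ALDH7A1 lies below ALDH2 on the left for shNC (6.52 against 7.81) but above it on the right (23.5 against 7.94).

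Summed over the 8 aldehyde dehydrogenases among the members, the level was 54.1 ± 0.640 FPKM with shNC and 25.7 ± 1.10 FPKM with shNUF2, a ratio of 0.475. The 3 ALDH3 genes made up 39.2 ± 1.28 FPKM of this with shNC and 14.2 ± 0.557 FPKM with shNUF2, a ratio of 0.362. The 11 other human aldehyde dehydrogenases summed to 134 ± 1.22 and 97.9 ± 4.62 FPKM, a ratio of 0.730. Over all 19 the libraries stood at 188, 189 and 186 FPKM with shNC and at 119, 130 and 122 FPKM with shNUF2. ALDH3B1 accounted for 14.3% of this sum with shNC and for 7.22% with shNUF2. Per length of the longest coding transcript, again an alternative chosen after the data were seen, these shares were 21.3% and 11.7%, and the ratio of the sum over the 8 members was 0.475, that over the 11 others 0.713.

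**Figure D4:**
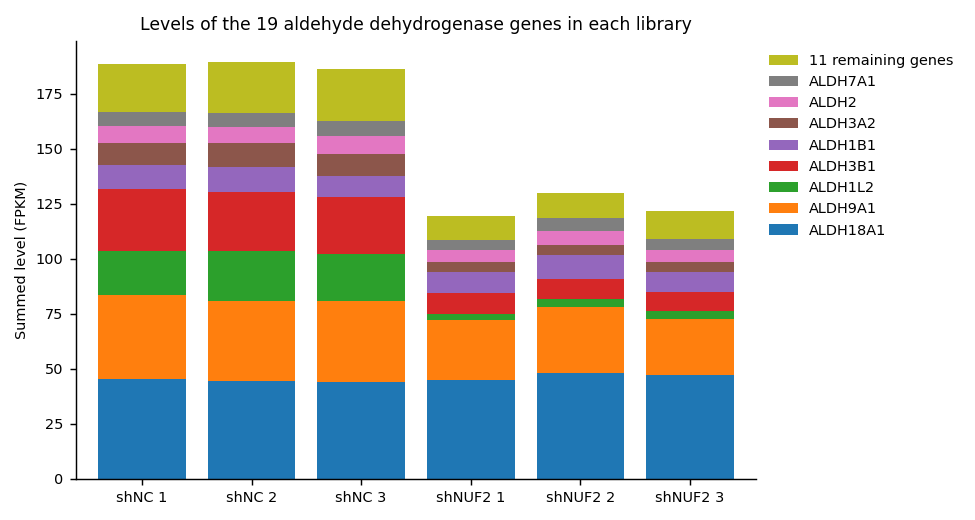
Summed level (FPKM) of the 19 aldehyde dehydrogenases in each of the 6 libraries, stacked by gene from 0, with the 11 remaining genes in one segment. The 3 shNC bars reach 186 to 189 FPKM and the 3 shNUF2 bars 119 to 130 FPKM.

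The other aldehyde dehydrogenases, which were not among the members, had a median log2 fold change of -0.90, beside -0.01 for all genes. Of these 11 genes 8 could be tested, 3 passed the thresholds as lower, beside 4.16% of all genes tested, and 6 were lower at an adjusted p under 0.05, beside 33.8% of all genes. ALDH1L2, the mitochondrial enzyme that turns formyl-tetrahydrofolate into tetrahydrofolate and carbon dioxide, was counted at 2676, 3385 and 3410 reads for shNC and at 409, 492 and 515 reads for shNUF2. It was 5.84-fold lower, with a log2 fold change of -2.55 (SE 0.06, adjusted p = 6.75e-22 in edgeR's test), a larger decrease than that of any member. ALDH5A1, which degrades the GABA product succinic semialdehyde, was at -1.01 (SE 0.09, adjusted p = 1.64e-10) and ALDH16A1 at -1.02 (SE 0.12, adjusted p = 2.05e-08). Both stand at the edge of the threshold, and without shNC replicate 3 or without shNUF2 replicate 1 the list had 1 gene past it in place of 3. ALDH9A1, which makes a carnitine precursor and was among the most abundant at 37.1 FPKM with shNC, was at -0.39 (SE 0.05, adjusted p = 3.93e-07). ALDH18A1, which makes the proline precursor and was the most abundant at 44.7 FPKM with shNC and 46.6 FPKM with shNUF2, had a log2 fold change of 0.10 (SE 0.04, adjusted p = 0.053).

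Genes that handle retinoids up- or downstream of the ALDH1A enzymes were counted next. Of 20 genes 12 could be tested, and 1 passed the thresholds as higher, beside 9.41% of all genes tested. None passed as lower, beside 4.16%, and the median log2 fold change was 0.10. At an adjusted p under 0.05, 4 were higher and 4 lower, shares close to the 33.9% and 33.8% of all genes tested. The 1 gene was CRABP2, which carries retinoic acid to its receptor in the nucleus. It was counted at 147, 148 and 148 reads for shNC and at 402, 385 and 470 reads for shNUF2, 3.22-fold higher, with a log2 fold change of 1.69 (SE 0.11, adjusted p = 1.22e-13 in edgeR's test). The receptor partner RXRA was at -0.52 (SE 0.05, adjusted p = 1.67e-10) and RXRB at 0.17 (SE 0.05, adjusted p = 0.0084). The carrier was thus higher with shNUF2, while ALDH1A1 and ALDH1A2 stayed at or near the limit of detection in both groups. ALDH1A3 had a measurable level, and retinoic acid itself was not measured.

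Enzymes that form or remove aldehydes by other routes were compared in the same fit. Of 15 alcohol dehydrogenases and carbonyl reductases 7 could be tested, 2 passed the thresholds as lower, beside 4.16% of all genes tested, and the median log2 fold change was -0.52, beside -0.01. At an adjusted p under 0.05, 4 were lower, beside 33.8% of all genes, and the other 3 did not pass. The 2 past the thresholds were AKR1C2, at -1.75 (SE 0.06, adjusted p = 1.12e-18 in edgeR's test), and AKR1C3, at -1.28 (SE 0.05, adjusted p = 2.49e-18), which reduce steroid ketones. The AKR1C genes are near-identical copies, so that reads may have been split between them. AKR1B1, aldose reductase and the most abundant of the list, was at 174 FPKM with shNC and 160 FPKM with shNUF2, with a log2 fold change of -0.08 (SE 0.04, adjusted p = 0.0619). AKR1A1, aldehyde reductase, was at -0.52 (SE 0.06, adjusted p = 6.09e-09).

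The amine oxidases, which release aldehydes from amines, were counted in the same way. Of 12 genes 10 could be tested, 4 passed the thresholds as higher, 1 passed as lower and 5 did not pass, beside 9.41% higher and 4.16% lower over all genes tested. At an adjusted p under 0.05, 7 were higher and 1 lower, beside 33.9% and 33.8% of all genes tested. The median log2 fold change was 0.78, beside -0.01 over all genes. LOX, which makes the lysine aldehydes that cross-link collagen and elastin, rose from 53.3 to 206 FPKM, a log2 fold change of 1.99 (SE 0.05, adjusted p = 9.9e-22 in edgeR's test). LOXL4, of the same family, rose by 1.36 (SE 0.11, adjusted p = 5.57e-11). SMOX, spermine oxidase, rose by 1.38 (SE 0.09, adjusted p = 4.02e-13) and AOC3, a cell surface amine oxidase, by 1.94 (SE 0.30, adjusted p = 2.58e-06), though AOC3 was at 0.68 and did not pass with limma on log2(FPKM + 1). LOXL2, at 86.5 FPKM with shNC and 117 FPKM with shNUF2, was at 0.48 (SE 0.06, adjusted p = 3.05e-08). MAOB, the mitochondrial monoamine oxidase, fell by 1.36 (SE 0.06, adjusted p = 1.66e-16).

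XDH ends the breakdown of purines, and 12 genes of purine breakdown and salvage were set beside it. Of these 11 could be tested, 3 passed the thresholds as higher, beside 9.41% of all genes tested, and the median log2 fold change was 0.52, beside -0.01. At an adjusted p under 0.05, 7 were higher and 2 lower, beside 33.9% and 33.8% of all genes. The 3 genes past the thresholds all act on AMP. AMPD3 and AMPD2, which deaminate AMP to IMP, were at 2.24 (SE 0.08, adjusted p = 8.42e-19 in edgeR's test) and 1.44 (SE 0.06, adjusted p = 1.59e-17). NT5E, which is CD73 and turns extracellular AMP into adenosine, was at 1.97 (SE 0.07, adjusted p = 3e-19). The salvage enzyme HPRT1 was at 0.57 (SE 0.05, adjusted p = 2.55e-10) and APRT at -0.49 (SE 0.08, adjusted p = 4.2e-06). GDA, guanine deaminase and the most abundant of the list at 74.2 FPKM with shNC, was at 0.12 (SE 0.05, adjusted p = 0.0294).

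**Figure D5:**
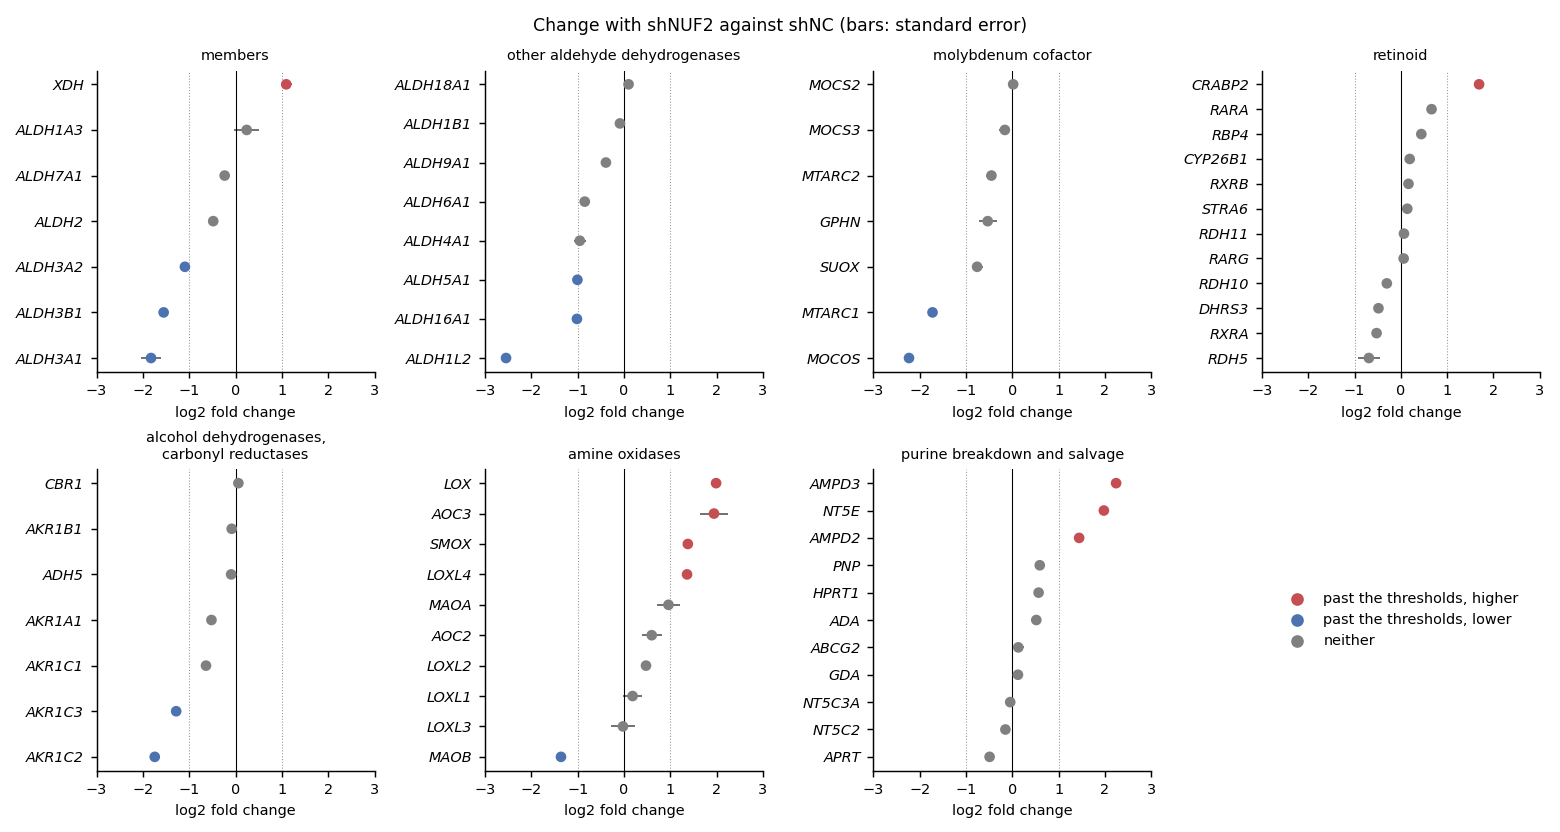
Log2 fold change (shNUF2 against shNC) of each tested gene in the members and in the related lists, with 1 SE as a bar, dotted lines at 1 and -1, and genes past the thresholds in red (higher) or blue (lower); AOX1 lies beyond the scale and is left out. The other aldehyde dehydrogenases reach from -2.55 for ALDH1L2 to 0.10 for ALDH18A1, while 4 amine oxidases and 3 purine genes lie above 1.

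The genes whose values followed the members most closely were found over the 6 libraries among 11668 genes with a mean of at least 0.5 FPKM, by the root mean square difference of log2(CPM + 1) after each gene's mean was subtracted. As the members were chosen for their difference between the groups, this likeness is a description and mostly that of the group difference. Nearest to AOX1 was IL33, an alarmin of the interleukin-1 family, at 0.182, with read counts of 3, 2 and 5 for shNC and of 134, 137 and 142 for shNUF2. The next were the cytokine IL6 at 0.236 and TNFAIP3, an inhibitor of NF-κB signalling, at 0.253. Their fitted log2 fold changes, 5.51 for IL33, 3.75 for IL6 and 3.01 for TNFAIP3, were smaller than the 6.93 of AOX1. The 1 added to CPM before the log shrinks the difference of AOX1, which was at 0.0637 CPM with shNC. Which genes come nearest to AOX1 thus depends on that addition. XDH was nearest to FAM214B (0.0521), PDLIM2 (0.0552) and SHH (0.0575). ALDH3A2 was nearest to ATXN10 (0.0343), the mitochondrial folate enzyme MTHFD2 (0.0355) and NUCKS1 (0.0358). ALDH3B1 was nearest to H6PD (0.0655), SLC25A35 (0.0761) and CAMKK1 (0.0785), and ALDH3A1 to TSEN15 (0.0616), IMPA2 (0.0685) and SCART1 (0.0719).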

How the data were processed

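RNA-seq libraries (TruSeq Stranded mRNA, NovaSeq) of shNC and shNUF2 cells were grouped by their labels, 3 per group. The authors counted reads per gene and deposited the counts without normalization, with 13057534 to 16995452 per library. The authors also deposited FPKM, which equal count per gene length and library total. The submitters' processing notes name cutadapt, HISAT, HTSeq and GRCh38.p13. The annotation release and the strand setting are not given in the sources used here.

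The counts were fitted in edgeR 4.0.16 (R 4.3.3) by the quasi-likelihood test over all 6 libraries, after filterByExpr and TMM scaling, with Benjamini-Hochberg adjustment over 12874 genes. Genes were called at log2 fold changes beyond 1 or -1 with an unadjusted p under 0.05, the study's cut-offs with its fold change read here as log2, since its methods state neither the scale nor a test for the RNA-seq calls. The SE is the fold change divided by the root of the F statistic. Alternatives were other scalings and filters, DESeq2 1.42.0, limma 3.58.1 on log2 FPKM with pseudocounts of 1 and 0.1, edgeR's TREAT test, adjusted p, a replicate block and each library left out. On simulated counts with 200 changed genes at the means of these libraries, edgeR recovered 200 of them among 12839 genes, with 3 unchanged genes called. DESeq2 recovered 200 with 11 unchanged genes called, and limma 196 with 0. The changed genes were drawn from well-counted genes, were given larger changes than those of XDH and ALDH3A2, and had a single fixed spread. The simulation thus does not cover calls near the threshold or genes with few shNC reads, such as AOX1.

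The members and lists were chosen with earlier results of these data known. Named genes are the members, NUF2, genes of each list past the thresholds or among its 3 highest in FPKM, the 3 genes on each side of AOX1, and the 3 nearest profiles. SUOX, MOCS1 and ALDH3B2 were named after their values were seen. One marker is not reported here. Other calculations used Python 3.11.15, numpy 2.4.6, scipy 1.17.1 and pandas 2.3.3.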

Additional observations from a re-analysis of the deposited data

How the results depend on the processing

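Over all genes, the numbers past the thresholds changed by over 1.5 times under 3 alternatives: 756 higher when 1 CPM was required in each library, 430 higher and 206 lower with limma on log2(FPKM + 1), and 680 higher and 211 lower with TREAT, in place of 1212 and 536. Under each of these 3, the members had 1 higher gene in place of 2 and the other aldehyde dehydrogenases 1 lower gene in place of 3, and with limma on log2(FPKM + 1) the members had 1 lower gene in place of 3. AOX1 could not be tested under the 1 CPM filter. XDH was at 0.79, ALDH3A1 at -0.94 and ALDH3A2 at -0.99 with limma on log2(FPKM + 1), where the pseudocount shrinks low values. XDH and ALDH3A2 also did not pass in TREAT. With DESeq2's Wald test, and likewise without a filter, 3 retinoid genes were higher in place of 1 and 2 amine oxidases lower in place of 1. Without a filter, 1 alcohol dehydrogenase or carbonyl reductase was higher. These runs took in 16861 genes in place of 12874, and the median over all genes was 0.10 with DESeq2 in place of -0.01. With 1 library left out at a time, the numbers ranged from 1 to 2 for higher members, from 1 to 3 for lower other aldehyde dehydrogenases and from 1 to 2 for higher retinoid genes, and ALDH1A3 ranged from -0.13 without shNUF2 replicate 3 to 0.44 without shNUF2 replicate 1. Of 414 values recomputed, 380 kept their direction and their side of the threshold, or stayed within 1.5 times of their count. The fitted AOX1 value ranged from 1.35 to 7.11, since it depends on the prior count or pseudocount where shNC has 1 read per library. That single read per library is what limits the AOX1 ratio.

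The replicate numbers share no stated origin. The deviations of same-numbered libraries from their group means correlated at 0.04, 0.02 and -0.05, so the numbers were not taken to pair the samples. With a replicate block in the fit, 1207 genes overall passed as higher and 536 as lower, the members had 2 higher and 3 lower, and NUF2 was at -1.51.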
